A study of Capra hircus with 8 samples.

Results

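Cells given the circular RNA circRNA28250 were compared with cells of the control named 5NC in 4 of the 8 small RNA libraries of the series, 2 per group. The features followed were the 317 known mature miRNA rows of a table of 5093 rows, chosen by their goat miRNA name and a class other than hairpin, together with the small RNA classes of that table, and each library is given apart. All libraries came from Capra hircus of the strain Lanshan dairy goat, from mammary gland cells grown in 3D culture. The series text describes overexpression as delivery of the circRNA28250 gene with a virus, and the sample labels of that group read only cRNA28250. The labels do not say what 5NC contains, and its use as the control of overexpression rests on the order in which the series text lists the groups. A further control, 3NC, is given beside the comparison, and a knockdown group entered the statistical fit only. The labels leave unsaid whether the 2 libraries of a group were separate cultures, and p-values therefore speak of the spread between libraries that may be technical repeats. Counts of small RNAs do not hold circRNA28250, whose level was not analysed here, and the overexpression label has no check from it.

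MicroRNAs are short RNAs cut from a hairpin precursor, whose 5p or 3p arm guides silencing of messenger RNAs through a short seed at its 5′ end. Families share that seed, and clusters are cut from a common transcript. Sets called families below, such as the miR-10 superfamily and miR-23, miR-24 and miR-27, were grouped by name or cluster and not by a checked seed. Circular RNAs are closed by back-splicing, and part of the work on them asks whether they bind miRNAs. In mammary tissue the miR-200 family is known for holding cells in an epithelial state, and let-7 for rising as cells differentiate. The sequences of the mature miRNAs are not printed because none of the sources used here holds them.

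The second overexpression library stood apart in depth and in class. The totals were 15729279 and 12413546 reads in the first and second 5NC library and 12459225 and 6889730 reads in the first and second overexpression library. Mature miRNAs took 17.9% and 12.9% of these reads in 5NC and 26.0% and 2.79% with overexpression, or 2811202, 1598424, 3240968 and 192020 reads. The group means of 15.4% and 14.4% hide that the overexpression libraries lay on either side of both controls.

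The reads that filled the second overexpression library belonged to a bacterial RNA family. The Rfam row for transfer-messenger RNA, which rescues stalled ribosomes in bacteria, held 2.64% and 5.74% of reads in 5NC and 4.99% and 39.2% with overexpression (exact 95% binomial interval of the last value 39.15% to 39.22%). It also held 16.6% and 9.91% in the 3NC libraries, so a high share occurred without the overexpression label. Bacterial large subunit ribosomal RNA stood at 764 and 3958 reads per 1000000 in 5NC and 7892 and 12387 with overexpression, with 8193 and 3426 in 3NC. Bacterial small subunit ribosomal RNA stood at 812 and 1604 reads per 1000000 in 5NC and 4370 and 7823 with overexpression, with 4707 and 1784 in 3NC. Both bacterial ribosomal rows were thus higher in either overexpression library than in either 5NC library, but the first 3NC library exceeded the first overexpression library in both. The same held for a smaller row, transfer-messenger RNA of Betaproteobacteria. It stood at 159 and 411 reads per 1000000 in 5NC and 936 and 990 with overexpression, with 1754 and 367 in 3NC. The ribosomal rows ordered the libraries in part otherwise than the leading transfer-messenger RNA row, of which the first overexpression library had less than the second 5NC library. Across 5NC, overexpression and 3NC, that row and both ribosomal rows were lowest in the first 5NC library and highest in the second overexpression library. Whether these reads come from bacteria or are goat reads placed in the family was not tested.

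**Figure D1:**
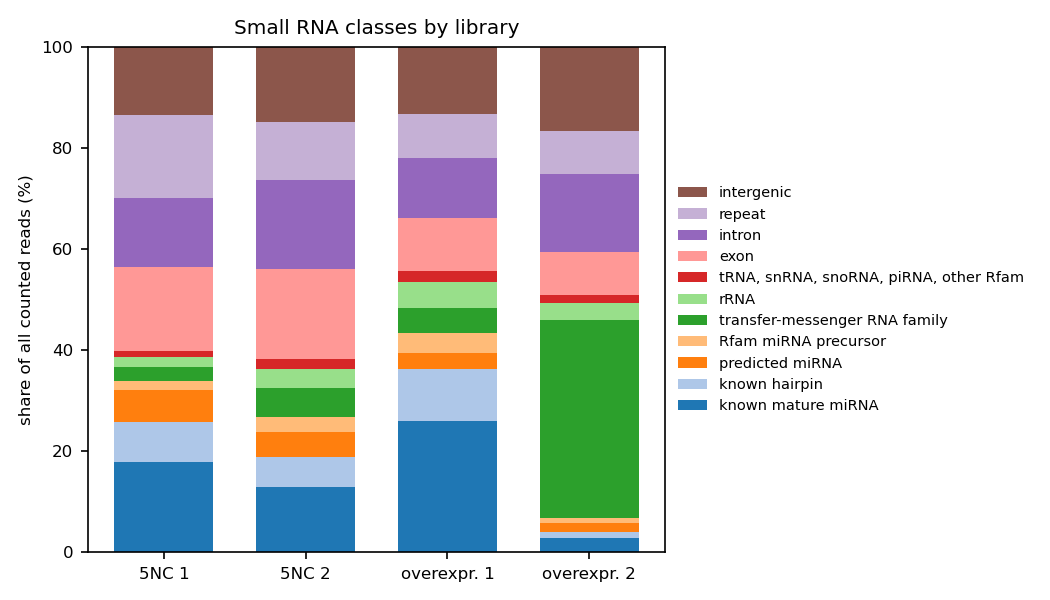
Share of all counted reads (y axis, %) in each small RNA class for the 2 libraries of 5NC and the 2 of overexpression (overexpr.). Mature miRNAs range from 2.79% to 26.0%, and the transfer-messenger RNA family fills 39.2% of the second overexpression library.

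Of the 14 small RNA classes, 1 was higher in both overexpression libraries than in both 5NC libraries (7.14% of classes), 5 were lower (35.7%) and 8 overlapped. With 2 libraries against 2, an exact two-sided permutation test cannot go below p = 0.333, so that test could not call any of these differences, and they are given as descriptions. The higher class was tRNA, the adaptors of translation, with 0.204% and 0.310% of reads in 5NC and 0.679% and 0.784% with overexpression, a ratio of means of 2.85. Its Rfam tRNA row made up nearly all of it, and the 3NC libraries had 0.728% and 0.349%, which overlap with overexpression and lie above both 5NC libraries. Small nuclear RNAs, the RNA parts of the spliceosome, had 0.0553% and 0.0504% in 5NC and 0.0357% and 0.0309% with overexpression. Most of these reads were U6, at 468 and 312 reads per 1000000 in 5NC and 196 and 187 with overexpression. U1 overlapped between the groups and U2 was not lower in either overexpression library, so the lower class followed U6.

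Reads placed in exons took 16.6% and 17.9% in 5NC against 10.5% and 8.57% with overexpression, and repeats took 16.4% and 11.4% against 8.65% and 8.42%. Predicted miRNAs had 6.25% and 4.91% against 3.28% and 1.72%, and predicted piRNAs, small RNAs known for silencing transposons in the germ line, 0.303% and 0.104% against 0.0846% and 0.0463%. With the transfer-messenger RNA row taken out of the totals, 6 classes still did not overlap, but repeats were no longer among them (16.8% and 12.1% against 9.11% and 13.8%) and ribosomal RNA was, at 2.0% and 3.98% in 5NC and 5.48% and 5.70% with overexpression. The mature share was then 18.4% and 13.7% in 5NC and 27.4% and 4.58% with overexpression. The direction of the mature share thus differed between the overexpression libraries with and without those reads.

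Markers of other cell types were read beside the tissue label. The miR-200 family (miR-200a, miR-200b, miR-200c, miR-141 and miR-429), which defines epithelia, summed to 57.9 and 35.3 CPM in 5NC and 35.7 and 230 CPM with overexpression, where CPM are counts per 1000000 miRNA reads after TMM scaling. The mesenchymal list, led by miR-143-3p and miR-199a-3p of smooth muscle and fibroblasts, summed to 464 and 7720 CPM in 5NC and to 35329 and 10096 CPM with overexpression. In each library the miR-200 family was therefore far below the mesenchymal list, although the labels say mammary gland. The miR-183 cluster (miR-183, miR-96 and miR-182), also known from epithelia, summed to 13093 and 868 CPM in 5NC and 99.9 and 72.1 CPM with overexpression. It thus lay above the mesenchymal list in the first 5NC library and below it in the second 5NC library and both overexpression libraries. In the second 5NC library miR-141, miR-200a and miR-200b had 0 reads, and in the first overexpression library miR-200a and miR-429 did. Markers miR-203 and miR-205 were looked for by name and matched no mature row. In bulk libraries fewer cells of a type and less RNA per cell cannot be told apart.

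Libraries of the same group lay far apart in 5NC and overexpression and closer together in 3NC. Of the 317 mature rows, 159 were detected in all 4 libraries and 23 in none. A filter on low counts left 224 mature miRNAs for testing, together with 134 predicted ones, and the 93 mature miRNAs left out reached at most 60.7 CPM in these libraries. Among the 224, the median absolute log2 difference between the libraries of a group was 1.99 for 5NC, 1.61 for overexpression and 0.49 for 3NC. Between the group means of overexpression and 5NC the median absolute log2 fold change was 1.45, a value over means of 2 libraries that is not on the same footing as gaps between single libraries. More than 4-fold differences separated the 5NC libraries for 112 miRNAs, the overexpression libraries for 91 and the 3NC libraries for 34.

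The first 5NC library carried many of these gaps. Rank correlations (Spearman) over the 358 tested miRNAs, which share library depth and are no replicates, were 0.57 between the 5NC libraries and 0.75 between the overexpression libraries. The second 5NC library correlated at 0.84 with the first overexpression library and at 0.85 and 0.81 with the 3NC libraries, whereas the first 5NC library stayed at 0.47 to 0.50 with those and the second overexpression library. By the values, 7 miRNAs stood under 20 CPM in the first 5NC library and above 500 CPM in the second, a rule chosen after the data were seen. MiR-204-5p, known from the eye and kidney, had 16.2 and 158701 CPM in these libraries, and its relative miR-211, known from melanocytes, 0 and 6223 CPM. MiR-3432-5p had 3.88 and 11207 CPM, miR-197-3p 0.353 and 1005 CPM, miR-455-3p 0.706 and 979 CPM, miR-1343 0.353 and 751 CPM, and miR-155-5p, an immune regulator, 0.353 and 566 CPM. For all 7 of them the overexpression libraries lay above the first 5NC library, from 313 CPM upward.

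**Figure D2:**
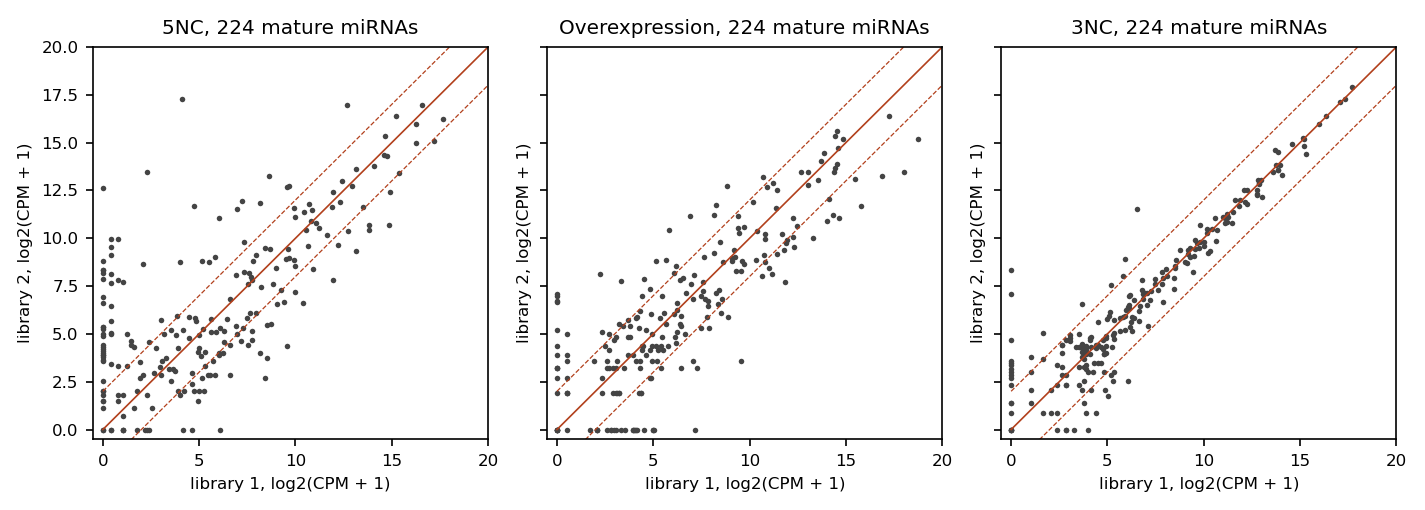
Levels of the 224 tested mature miRNAs in the first library of a group (x axis, log2(CPM + 1)) against the second (y axis, the same scale), for 5NC, overexpression and 3NC. Each point is a miRNA, the solid line marks equal levels and the dashed lines a 4-fold difference, which 112, 91 and 34 miRNAs exceed.

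The most abundant miRNAs differed by library too. MiR-99b-5p led the first 5NC library with 20.5% of mature reads, miR-204-5p the second with 16.3%, let-7b-5p the first overexpression library with 29.3% and miR-222-3p the second with 16.3%. The 10 leading miRNAs held 78.1% and 79.4% of mature reads in 5NC and 79.3% and 65.5% with overexpression. A different miRNA thus led each of the 4 libraries, though the concentration was close in the first 3 of them.

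No mature miRNA passed the test of overexpression against 5NC. The edgeR quasi-likelihood test, with Benjamini-Hochberg adjustment over all 358 tested miRNAs, called 0 (0.0%), and the smallest adjusted p was 0.602. At an unadjusted p under 0.05 there were 29 miRNAs (8.1%), 9 higher (2.51%) and 20 lower (5.59%), of which 7 and 11 were mature. DESeq2 called 25, of which 12 were higher (3.35%) and 13 lower (3.63%), and 15 of the 25 were mature (8 higher, 7 lower). It gave no adjusted p for 84 miRNAs. Among the miRNAs named below it called miR-183, miR-182, miR-424-5p, miR-25-5p and miR-106b-3p as lower and miR-767, miR-708-5p, miR-346-5p, miR-126-3p, miR-122 and miR-192-5p as higher, with DESeq2 adjusted p from 9.7e-05 to 0.0303. The 2 tools therefore part on the calls, and in the fit of all libraries edgeR called none of the fold changes below. For 11 of the 12 mature miRNAs of lowest p, 6 in each direction, the 3NC mean on the log2(CPM + 1) scale lay nearer to overexpression than to 5NC, and miR-767 was the exception.

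Without regard to size, the groups did not overlap for 40 mature miRNAs that were higher with overexpression and 41 that were lower, beside 14.8% and 16.2% of all tested miRNAs. Fold changes were above 0 for 123 mature miRNAs and below 0 for 101, beside 54.2% and 43.3% of all tested. Their absolute log2 value exceeded 1 for 140 of the 224. The median log2 fold change of all tested miRNAs was 0.25 after TMM scaling. It was 0.35 on DESeq2 size factors, 0.30 on plain miRNA totals and −0.26 on totals that include every named small RNA. Leaving out the second 5NC library gave 1.55, and leaving out the first overexpression library gave −0.56. Values below are relative to the TMM centre.

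Among known mature miRNAs the lowest p-values on the lower side belonged to the miR-183 cluster, whose 3 members are cut from neighbouring hairpins and are known from sensory and other epithelia. MiR-183 had 9141 and 634 CPM in 5NC and 43.5 and 27.7 CPM with overexpression, a log2 fold change of −7.09 ± 1.73 (SE, n = 2 per group, edgeR adjusted p = 0.602). MiR-182 had 3906 and 227 CPM in 5NC and 49.5 and 44.4 CPM with overexpression, a log2 fold change of −5.46 ± 1.66. For both the groups did not overlap, but the first 5NC library was more than 10-fold above the second, and the 3NC libraries had 71.8 and 39.6 CPM of miR-183 and 60.2 and 36.4 CPM of miR-182. Without the first 5NC library the log2 fold changes were −4.14 and −2.27. Against 3NC they were −0.63 and −0.039. DESeq2 called both (adjusted p 9.7e-05 for miR-183 and 0.00529 for miR-182), and edgeR called both without the second 5NC library (adjusted p 0.0217 and 0.0228) and miR-183 with no low-count filter (adjusted p 0.0344). MiR-96 had 46.6 and 6.09 CPM in 5NC and 6.87 and 0 CPM with overexpression, which overlap. The part of the first 5NC library in these fold changes was not tested beyond leaving it out.

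MiR-15b-5p and miR-424-5p, which share the seed of miR-16 and are known for restraining the cell cycle, came next by p among known miRNAs. MiR-15b-5p had 6715 and 1311 CPM in 5NC and 629.9 and 311 CPM with overexpression (log2 fold change −3.09 ± 1.20). MiR-424-5p had 1003 and 143 CPM in 5NC and 40.8 and 19.4 CPM with overexpression (−4.23 ± 1.63). Both were lower in either overexpression library than in either 5NC library. Without the first 5NC library their log2 fold changes were −1.48 and −2.23. The 3NC libraries had 583 and 576 CPM of miR-15b-5p and 48.6 and 34.8 CPM of miR-424-5p, below both 5NC libraries, and against 3NC the log2 fold changes were −0.30 and −0.46.

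From the cluster of miR-106b, miR-93 and miR-25, tied to proliferation, the 2 rows named here were miR-25-5p and miR-106b-3p. The other arm, miR-106b-5p, held only 22 and 2 reads in 5NC and 0 and 1 with overexpression. All 4 tested rows of the cluster were lower, and miR-93-5p and miR-25-3p are given with their list below. MiR-25-5p had 1340 and 96.2 CPM in 5NC and 27 and 5.55 CPM with overexpression (−5.42 ± 2.12). MiR-106b-3p had 765 and 19.5 CPM in 5NC and 10.5 and 0 CPM with overexpression (−6.06 ± 2.49). The groups did not overlap for either. Without the first 5NC library, which had nearly all of the reads, the log2 fold changes were −2.50 and −1.73, and against 3NC they were −0.41 and −1.56.

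Let-7d-5p had 30152 and 1678 CPM in 5NC and 1708 and 555 CPM with overexpression (−3.81 ± 1.49), so that the second 5NC library lay below the first overexpression library and the groups overlapped. Without the first 5NC library the log2 fold change was −0.57, and against 3NC it was −0.70.

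On the higher side, miR-767 was low in both control groups. It had 0 and 3 reads in 5NC (0 and 1.83 CPM) and 750 and 57 reads with overexpression (344 and 158 CPM), with 5.28 and 8.70 CPM in 3NC. The log2 fold change was 8.03 ± 2.56, and the ratio of summed reads per miRNA library size was 473 (exact 95% interval 161 to 2299, for counting error only). In humans it is cut beside miR-105 from an X-linked cluster, and miR-105a had 10 reads in the first overexpression library and 0 in the other 3. Set against 3NC the log2 fold change was 5.14, and leaving out any 1 of the 4 libraries gave 7.01 to 11.18. All of these runs kept it higher with overexpression.

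MiR-708-5p, which in humans lies within a teneurin gene, had 1.06 and 0.609 CPM in 5NC, from 3 reads and 1 read, and 53.1 and 19.4 CPM with overexpression (5.27 ± 2.01). The ratio of summed reads was 54.1 (20.6 to 202). In 3NC it had 13.7 and 16.6 CPM, near the second overexpression library, which held 7 reads. MiR-346-5p had 0 reads in both 5NC libraries and in the first overexpression library and 45 reads (125 CPM) in the second. Its group mean was at least 43.2-fold higher than the mean floor of 3 reads per 5NC library, and this rests on that 1 library.

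The other 3 miRNAs of lowest p on the higher side are known from other tissues. MiR-126-3p, the endothelial miRNA, had 186 and 191 CPM in 5NC and 451 and 6768 CPM with overexpression (4.26 ± 1.35). MiR-122, made in hepatocytes, had 21.2 and 26.2 CPM in 5NC and 117 and 2305 CPM with overexpression (5.67 ± 2.27). For both the 5NC libraries were close and the second overexpression library was more than 10-fold above the first. Without that library the log2 fold changes were 1.30 and 2.33. In 3NC miR-126-3p had 588 and 657 CPM, and miR-122 90.8 and 2925 CPM, a wide gap within a control as well.

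MiR-192-5p, abundant in liver, gut and kidney, was the most even of the named miRNAs, with 48.4 and 54.2 CPM in 5NC and 388 and 429.9 CPM with overexpression (2.99 ± 1.24). Its cluster partner miR-194 had 8.12 and 31.1 CPM in 5NC and 125 and 191 CPM with overexpression (3.01 ± 1.51). Both were lower in 5NC than in 3NC, where miR-192-5p had 179 and 232 CPM and miR-194 71.8 and 128 CPM. With any 1 of the 4 libraries left out the log2 fold change of miR-192-5p stayed between 2.91 and 3.08. This is narrow beside its SE, yet the edgeR adjusted p was 0.602, while the DESeq2 adjusted p was 0.0269.

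**Figure D3:**
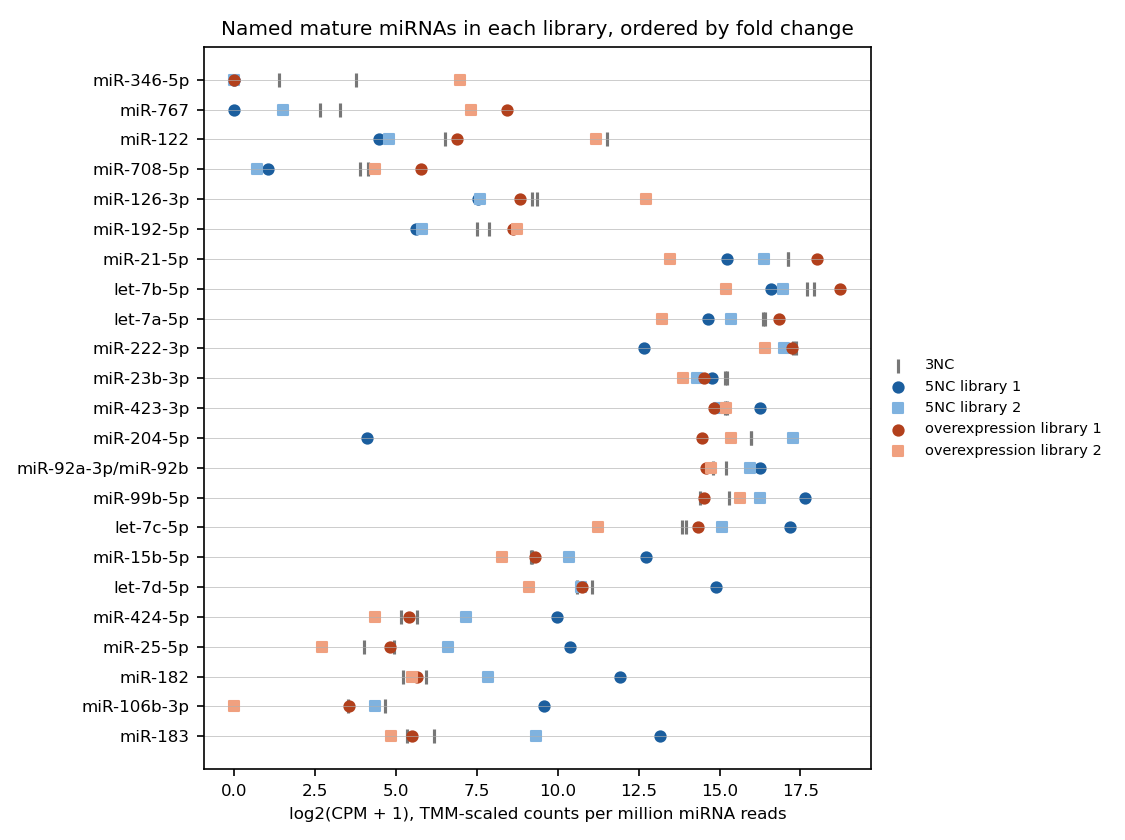
Level of each named mature miRNA (x axis, log2(CPM + 1)) in the 2 libraries of 5NC and the 2 of overexpression, with 3NC as grey ticks, ordered by fold change from lowest at the bottom. For miR-192-5p the libraries of each group coincide and the groups are apart, whereas for miR-204-5p the 5NC libraries stand at 16.2 and 158701 CPM.

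The most abundant miRNAs were described by their level. Let-7b-5p, a tumour-suppressing miRNA of differentiated cells, had 98514 and 127148 CPM in 5NC and 435486 and 37554 CPM with overexpression (1.07 ± 1.04). Let-7a-5p had 25634 and 41746 CPM in 5NC and 118218 and 9641 CPM with overexpression (0.92 ± 1.09). MiR-21-5p, widely raised in tumours, had 38249 and 85663 CPM in 5NC and 265052 and 11416 CPM with overexpression (1.16 ± 1.57). For all 3 the first overexpression library was the highest of the 4 and the second the lowest, and without the first their log2 fold changes were −1.59, −1.81 and −2.44.

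MiR-222-3p, known for silencing the cell cycle brake CDKN1B, had 6537 and 130374 CPM in 5NC and 155834 and 86869 CPM with overexpression (0.83 ± 1.20). Only the first 5NC library was low, and without it the log2 fold change was −0.10. MiR-204-5p had 22474 and 41878 CPM with overexpression, between its 2 values in 5NC (−1.30 ± 2.25). Without the second 5NC library its log2 fold change was 10.94 (edgeR adjusted p = 0.0228), and without the first −2.30. The direction of both thus turned on which 5NC library was used.

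Lower in both overexpression libraries were let-7c-5p, miR-99b-5p and the shared row of miR-92a-3p and miR-92b. Let-7c-5p had 147320 and 34645 CPM in 5NC and 20821 and 2399 CPM with overexpression (−2.97 ± 1.29). Its log2 fold change ranged from −5.24 to −1.58 with any 1 of the 4 libraries left out, and was −0.79 without the first 5NC and second overexpression libraries and −0.39 against 3NC. MiR-99b-5p had 203849 and 77903 CPM in 5NC and 23617 and 50629 CPM with overexpression (−1.92 ± 0.87), and 0.27 against 3NC, where the direction turned. The miR-92 row had 78750 and 63247 CPM in 5NC and 24463 and 27403 CPM with overexpression (−1.45 ± 0.75), the closest agreement within groups of the 3. Its log2 fold change stayed between −1.60 and −1.29 with any 1 of the 4 libraries left out, and was −0.36 against 3NC. MiR-423-3p (77319 and 32395 CPM in 5NC, 29087 and 37976 CPM with overexpression) and miR-23b-3p (27877 and 20149 CPM in 5NC, 23481 and 14880 CPM with overexpression) overlapped.

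Within families the shares do not depend on the scaling, and for several members those of the groups did not overlap. Shares within a family sum to a fixed total, so a lower share of a leading member raises those of the others. Let-7b-5p made up 30.3% and 59.1% of the let-7 5p reads in 5NC and 70.2% and 66.9% with overexpression. Let-7c-5p made up 45.4% and 16.1% in 5NC and 3.35% and 4.28% with overexpression, and let-7i-5p 1.56% and 1.80% against 4.06% and 3.83%. The shares of let-7b-5p and let-7c-5p therefore parted the groups in opposite directions, but the CPM of let-7b-5p overlapped between the groups. The share of the whole family in mature reads overlapped too, at 32.7% and 22.1% in 5NC and 41.8% and 10.5% with overexpression. The 3NC libraries had 62.7% and 66.0% of let-7b-5p and 4.63% and 3.86% of let-7c-5p, at the level of overexpression. How the authors assigned reads that match several let-7 members is not given in the sources used here. These shares are uncertain member by member for that reason.

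In the miR-10 superfamily, which holds miR-99, miR-100 and miR-125 and is known from Hox clusters and from let-7 clusters, miR-99b-5p was the member with the lower share. It made up 74.0% and 67.0% of the family in 5NC and 37.5% and 50.6% with overexpression. MiR-125a-5p, which in humans is clustered with miR-99b, made up 9.12% and 17.7% in 5NC and 23.3% and 22.2% with overexpression, and miR-100-5p 0.0545% and 3.41% against 13.1% and 11.2%. MiR-125a-5p had a level of 25134 and 20635 CPM in 5NC and 14672 and 22244 CPM with overexpression, which overlap. MiR-125b-5p made up 0.767% and 1.54% of the family in 5NC and 3.03% and 6.65% with overexpression. Since the shares sum to a fixed total, the lower share of miR-99b-5p entails higher shares elsewhere, here those of miR-100-5p, miR-125a-5p and miR-125b-5p. The 3NC libraries had 52.5% and 41.2% of miR-99b-5p, of which the first lay between the groups and the second within overexpression.

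MiR-15b-5p made up 83.8% and 19.0% of the miR-15 and miR-16 family in 5NC and 10.7% and 11.3% with overexpression, while miR-16a-5p and miR-16b-5p overlapped. MiR-16a-5p had 0.322% in the first 5NC library against 43.0% to 56.9% in the other 3. Among miR-23, miR-24 and miR-27, which are cut from 2 clusters, miR-23a made up 22.0% and 33.0% in 5NC and 39.6% and 43.3% with overexpression, and miR-23b-3p 68.4% and 53.5% against 41.5% and 49.3%. Here 3NC had 22.6% and 23.2% of miR-23a, within the range of 5NC. Overexpression thus stood apart from both controls in the share of miR-23a. How reads of the near-identical miR-23a and miR-23b were assigned is not given in the sources used here.

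**Figure D4:**
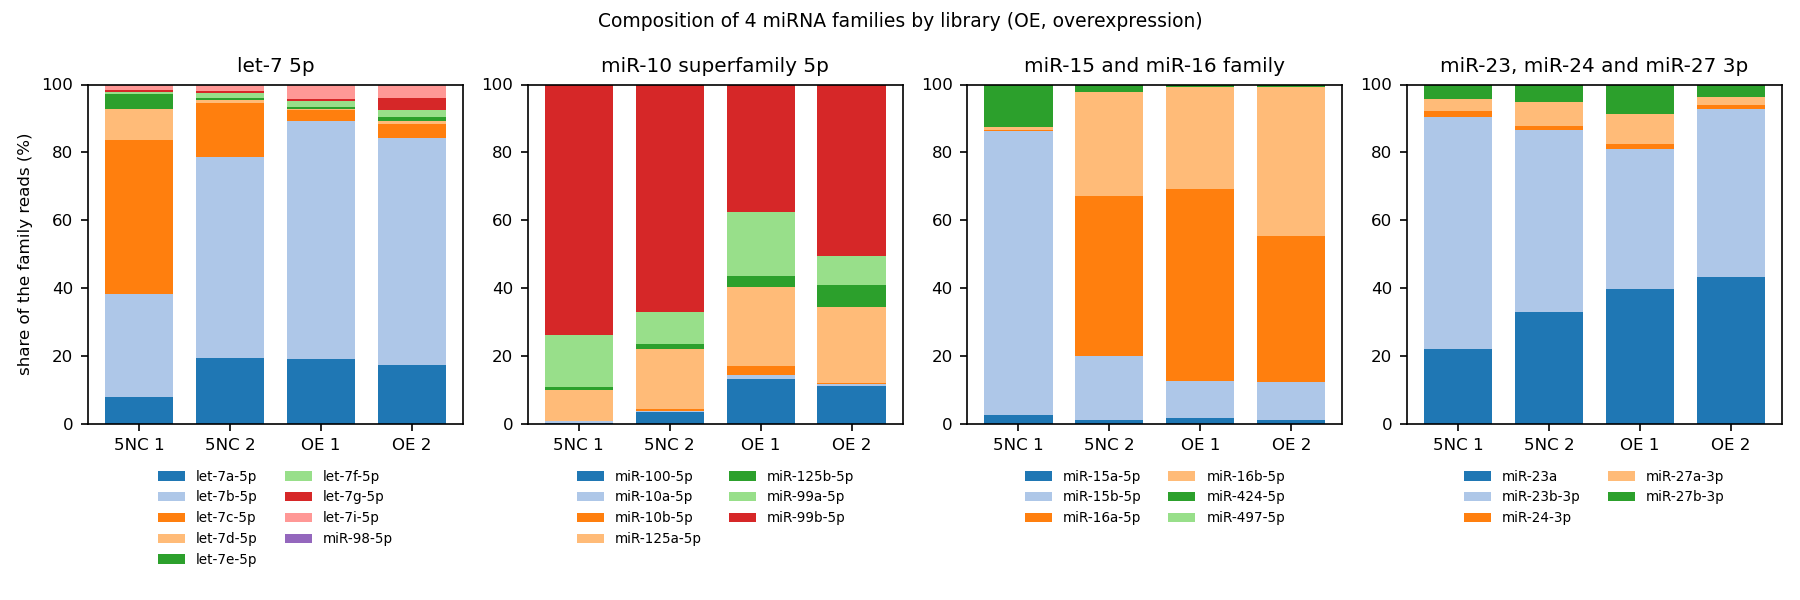
Share of the reads of 4 sets of related miRNAs (y axis, %) held by each member in the 2 libraries of 5NC and the 2 of overexpression (OE). Let-7c-5p makes up 45.4% and 16.1% in 5NC against 3.35% and 4.28% with overexpression, and miR-15b-5p fills 83.8% of its family in the first 5NC library.

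Lists of related miRNAs held 128 tested members in 22 lists, and edgeR called 0 of them. The direction of each list is given as the count of its tested members, beside 54.2% higher and 43.3% lower among all tested miRNAs and a median of 0.25. All 3 tested members of the liver, gut and kidney list were higher (median 3.01), the summed level being 77.7 and 111 CPM in 5NC and 630 and 2926 CPM with overexpression and 342 and 3285 CPM in 3NC. All 8 mesenchymal members were higher (median 1.66), but the 3NC sums of 24086 and 34898 CPM also lay above both 5NC sums. The groups did not overlap for 2 of the 8, beside 14.8% of all tested miRNAs on the higher side. Among the 8, miR-143-3p had 287 and 3714 CPM in 5NC and 17658 and 4227 CPM with overexpression. The row of miR-199a-3p, miR-199b-3p and miR-199c-3p had 125 and 3004 CPM in 5NC and 16606 and 1903 CPM with overexpression.

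The muscle list had 5 of 5 members higher (median 2.68), with sums of 21.5 and 664 CPM in 5NC and 149 and 1173 CPM with overexpression and 108 and 1231 CPM in 3NC. Its miR-133a-3p had 3.18 and 405 CPM in 5NC and 34.8 and 455 CPM with overexpression, so the second library of each group was the high one. The blood list had 3 of 3 higher (median 2.47), and its miR-451-5p of red cells had 193 and 290.4 CPM in 5NC and 279.9 and 2405 CPM with overexpression. The only tested member of the endothelial list was miR-126-3p. The miR-200 family had 4 of 5 higher (median 3.20), resting on the second overexpression library, without which the median was −1.81. For muscle the median without that library was −2.17, and for blood 0.23. The sums of endothelial, blood and miR-200 members were each highest in the second overexpression library, the one with 192020 mature reads.

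The miR-17 and miR-92 clusters had 10 of 11 tested members lower (median −1.98), 9 of them without overlap, beside 16.2% of all tested miRNAs. Their sum was 86921 and 64749 CPM in 5NC and 25122 and 28152 CPM with overexpression, with 38826 and 29323 CPM in 3NC. MiR-93-5p had 4745 and 815 CPM in 5NC and 282 and 596 CPM with overexpression, and miR-25-3p 989.6 and 378 against 231 and 86.0 CPM. The median was −1.25 without the first 5NC library and −2.82 on totals over every named small RNA. The miR-183 cluster had 3 of 3 lower (median −5.46) and the miR-30 family, linked to epithelial states, 7 of 8 (median −0.61). In that family miR-30a-5p had 679 and 99.9 CPM in 5NC and 46.7 and 66.6 CPM with overexpression, while miR-30b-5p had 158 and 302 against 136 and 269 CPM.

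Milk fat miRNAs had 3 of 4 tested members lower (median −2.10). MiR-103-3p, which is linked to milk fat synthesis in goat mammary cells, had 186 and 20.1 CPM in 5NC and 19.7 and 2.77 CPM with overexpression, and its close relative miR-107-3p 210.5 and 34.1 against 11.9 and 27.7 CPM. MiR-148a-3p, a major miRNA of milk, had 12.7 and 29.8 CPM in 5NC and 85.7 and 41.6 CPM with overexpression. The groups did not overlap for any of these 3, beside 14.8% of all tested miRNAs on the higher side and 16.2% on the lower. For miR-103-3p the groups nearly met, and its 2.77 CPM in the second overexpression library lay below 8.32 CPM, the level of 3 reads there. The list summed to 436 and 87.1 CPM in 5NC and 124 and 74.9 CPM with overexpression, which overlap. In 3NC the sums were 166 and 184 CPM. Without the first 5NC library the median of the list was −0.06. MiR-103-3p and miR-107-3p share most of their bases, so their reads may be split between them.

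All 4 tested miR-29 members, known for targeting collagens, were higher (median 1.42), with miR-29a-3p at 1687 and 3524 CPM in 5NC and 2699 and 5969 CPM with overexpression. The inflammation-responsive list had 3 of 4 higher (median 1.03), among them miR-146a with 0 and 28.6 CPM in 5NC and 233 and 38.8 CPM with overexpression. All 3 members of the miR-221 and miR-222 list were higher (median 0.68) and all 3 of the miR-204 and miR-211 list lower (median −1.38), both resting on the first or second 5NC library as given for miR-222-3p and miR-204-5p. In the DLK1-DIO3 cluster, an imprinted region rich in miRNAs, 7 of 11 tested members of 32 were higher (median 0.81, and −1.21 without the second overexpression library). Its miR-127-3p had 21.2 and 57.8 CPM in 5NC and 71.9 and 377 CPM with overexpression.

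Of the lists not yet given, those with members on both sides were let-7 (7 higher and 8 lower of 15, median −0.30), the miR-10 superfamily (4 and 8 of 12, −0.59), miR-15 with miR-16 (3 and 4 of 7, −0.25), miR-23, miR-24 and miR-27 (5 and 3 of 8, 0.03), miR-34 with miR-449 (2 and 2 of 4, 0.35) and the neural list (3 and 2 of 5, 0.08). On totals of all named small RNAs the last 3 of these medians were −0.51, −1.61 and −1.15. MiR-34a, a target of p53, had 393 and 9653 CPM in 5NC and 55540 and 3309 CPM with overexpression. The only tested member of the miR-767 and miR-105 list was miR-767.

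**Figure D5:**
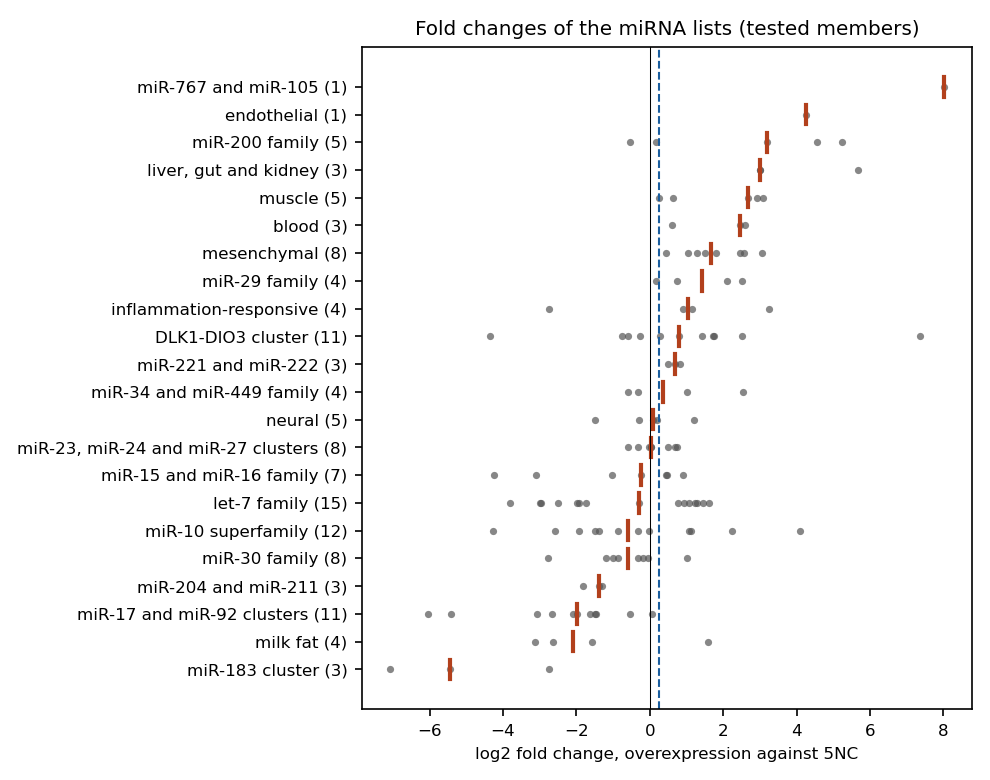
Log2 fold change of overexpression against 5NC (x axis) for the tested members of each miRNA list (grey points, number of members in brackets), with the list median as a red bar. The dashed line marks the median of the tested mature miRNAs, 0.25, and list medians run from −5.46 (miR-183 cluster) to 8.03 (miR-767 alone).

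Neighbouring hairpins were compared through the RefSeq gene table of assembly ARS1.2, used only for which miRNA genes lie within 10 kb of each other, because the build behind the counts is not named in the sources used here. In 27 groups of neighbours at least 2 genes were tested, and in 12 of them all tested arms lay on the same side of 0, 6 higher and 6 lower. The lower ones include let-7c with miR-99a (4 arms, log2 fold changes −2.97 to −1.38) and let-7e with miR-99b (3 arms, −1.93 to −1.73). Among the higher ones were miR-143 with miR-145 (3 arms, 1.82 to 3.05), and miR-362, miR-500 and miR-660 (3 arms, 1.96 to 2.13). Members of a neighbour group can be cut from a common transcript, so their arms are not independent. Among all tested miRNAs 54.2% were higher and 43.3% lower, and many groups held few tested arms. Some groups would thus lie on the same side of 0 without any link, and how many was not worked out.

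Arms of a hairpin were compared where each arm had at least 10 reads in each of the 4 libraries, which 13 of 91 pairs met. The 5p arm held a larger share of reads in both overexpression libraries for 0 of the 13 (0.0%) and a smaller share for 3 (23.1%). MiR-22, a miRNA of muscle and many other tissues, had 35.6% and 25.5% of its reads on the 5p arm in 5NC and 17.6% and 18.2% with overexpression, with 28.0% and 18.4% in 3NC. The 5p share of miR-30a was 89.9% and 81.2% in 5NC and 78.5% and 61.5% with overexpression, and that of miR-129 98.1% and 95.1% against 94.3% and 90.8%. For 12 of the 13 pairs the same arm led in all 4 libraries, and let-7d was the exception. None of the 3 pairs had 50 reads of each arm in every library, so at that depth the count was 0 of 5.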

How the data were processed

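Of the small RNA libraries made from goat mammary gland cells, the comparison used 4, with the other 4 of 8 entering the fit through the shared spread. The table deposited by the authors gives a whole-number count and a TPM value per row and library, per the file headers. The deposited TPM values equal counts per 1000000 of the column total within 0.0141% for rows of at least 1000 reads, with a count of 0 written as 0.001, and were used only for that check. Rows named with the prefix chi-, left out here, are known goat miRNAs. The sources used here name no aligner, counting tool or genome build, and do not say how reads with several matches were treated or whether hairpin rows repeat mature reads, so hairpin rows stayed out.

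Counts of 981 mature and predicted miRNAs were tested with edgeR 4.0.16 in R 4.3.3 (filterByExpr with a minimum count of 10, TMM factors, robust quasi-likelihood F test, two-sided, group only, 4 residual degrees of freedom), with p-values adjusted by Benjamini-Hochberg over 358 miRNAs at 0.05. The biological coefficient of variation was 1.28. DESeq2 1.42.0 was an alternative. The SE is the log2 fold change divided by the square root of F. MiRNA reads numbered 3793725, 2208197, 3649269 and 310290 in the 5NC and overexpression libraries, and 3 reads corresponded to 1.06, 1.83, 1.37 and 8.32 CPM. Intervals are exact at 95% and cover counting error only, as no molecular identifiers mark single molecules. The fit was also run on simulated data with known fold changes, and the outcome is not given here.

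Named miRNAs were, in each direction, the 6 of lowest p, then the 10 most abundant, the 4 with the largest fold change per direction among those of at least 100 CPM whose groups did not overlap, and examples among the 3 most abundant members of a list. The members, lists and this rule were chosen with earlier results of these data known. The lists cover 181 mature rows in 22 lists, and a list of other epithelial miRNAs matched no row. Arm, family and neighbour comparisons are descriptions without a test. Of 224 tested mature rows, 210 matched a gene of the RefSeq table.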

Additional observations from a re-analysis of the deposited data

How the results depend on the processing

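The count of 0 calls was also found on DESeq2 size factors, on miRNA totals, in the 4 libraries alone, with summed hairpins, all named rows, mature rows alone, equal depth, 3NC as the control, and with both the first 5NC and second overexpression libraries dropped. It was 25 with DESeq2, 1 on totals of all named small RNAs and 4 with no low-count filter, and ranged from 0 to 16 with 1 library left out, the 16 arising without the second 5NC library. Replicate numbers paired the libraries weakly if at all over the tested miRNAs together (correlation of deviations −0.06 for 5NC with overexpression, and −0.06 to 0.29 over the 6 pairs of groups). A replicate block gave 0 calls. Pairing for some miRNAs stays possible. The muscle sum and the liver, gut and kidney sum were higher in the second library of every group, while the let-7 sum was not. With the block the log2 fold change of miR-122 was 3.77, against 5.67 in the main fit. Of 478 refits of 23 named fold changes, 463 kept their direction, and 14 of the 23 miRNAs never turned. Many refits kept all 4 libraries of the comparison, such as those without a 3NC or knockdown library. Those refits could hardly turn a direction. With 3NC as the control the log2 fold change turned for let-7a-5p (−0.41), miR-122 (−0.32), miR-21-5p (−0.038), miR-222-3p (−0.42) and miR-99b-5p (0.27). With a replicate block that of miR-21-5p was −0.28. With 1 library left out it ranged from −1.81 to 1.83 for let-7a-5p, −1.59 to 1.97 for let-7b-5p, −2.44 to 2.10 for miR-21-5p, −2.30 to 10.94 for miR-204-5p, −0.10 to 4.21 for miR-222-3p, −0.69 to 0.020 for miR-23b-3p and −1.21 to 0.050 for miR-423-3p. MiR-23b-3p was also 0.12 at equal depth and 0.17 with both doubted libraries dropped. The mean mature share of 5NC was 22.3% with hairpins, 21.0% with predicted miRNAs and 39.2% of named rows. The count of 3 arm pairs was 0 at 50 reads. The causes were not tested. The joint removal of 2 libraries, the totals without transfer-messenger RNA and the arm minimum were chosen after seeing the data. With 1 library left out, the lone library is assumed to vary like the other groups. MiR-346-5p had no value where its only library was left out. Depth limits the second overexpression library, where 3 reads were 8.32 CPM.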

Other observations

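Predicted miRNAs, named as the table names them, were mostly found in a single library or in none, though together they held 982523 and 609773 reads in 5NC and 408301 and 118270 with overexpression. Of 664, 21 were detected in all 4 libraries, 247 in none and 299 in 1 only. The detected numbers were 78 and 197 in 5NC and 279 and 55 with overexpression, so the first overexpression library had the most and the second the fewest. The lowest p-values among them belonged to novel_mir5, with 11677 and 606 CPM in 5NC and 61.8 and 88.8 CPM with overexpression, and to novel_mir9, with 2090 and 25 CPM in 5NC and 0 reads with overexpression. Novel_mir261 had 0 reads in 5NC, 42.1 and 33.3 CPM with overexpression, and 24.3 and 24.5 CPM in 3NC. EdgeR called 0 of the 134 that were tested.

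The predicted novel_mir1 and novel_mir432 reached the levels of the leading known miRNAs. Novel_mir1 had 164551 and 112886 CPM in 5NC and 98654 and 66034 CPM with overexpression, and novel_mir432 112144 and 164710 CPM in 5NC and 13706 and 164621 CPM with overexpression. Mature rows seen in both libraries of only 1 group were few. Both overexpression libraries and neither 5NC library held 3 mature miRNAs, and both 5NC libraries and neither overexpression library held 10. The most read of the latter was miR-99b-3p, with 172 and 5 reads.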
